A study of Homo sapiens with 4 samples.

Results

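VCP, also called p97, is a hexameric ATPase of the AAA family that pulls ubiquitinated proteins out of membranes and complexes so that the proteasome can degrade them. It has little choice of substrate by itself and is directed by cofactors. Proteins that dock through a UBX domain, a fold that resembles ubiquitin, are their largest family, and some of these also carry a UBA domain that binds ubiquitin chains. UBXN1 is one of the proteins with both domains. The transcripts of UBXN1, VCP and 8 further cofactors (NSFL1C, UFD1, NPLOC4, FAF1, FAF2, UBXN4, UBXN7 and UBXN6) were examined here. The genes were chosen by name, with earlier results of these data known. All 10 were each found once among the 61541 gene IDs of the table. RNA had been sequenced from MHCC97H, an established human hepatocellular carcinoma line, in 2 libraries of control cells (shCon) and 2 libraries of cells with a short hairpin RNA against UBXN1 (shUBXN1). The study's methods describe hairpins in the pLKO.1 vector delivered by lentivirus and name shRFP as the control, and neither they nor the labels name the hairpin of the sequenced cells or a time point. Nothing states that the libraries of a group came from separate cultures, so the p-values below measure the spread between these libraries, which may be technical.

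Of the 10 genes, 5 were lower in UBXN1-knockdown cells (UBXN1, VCP, NSFL1C, FAF1 and FAF2), 2 were higher (NPLOC4 and UBXN7) and 3 did not pass the test (UFD1, UBXN4 and UBXN6). A gene was called at a Benjamini-Hochberg adjusted p under 0.05 from edgeR's quasi-likelihood test, adjusted across all 16863 genes that passed the filter on low counts. The background was high, since 56.2% of all genes tested were called (28.0% of all genes tested higher and 28.2% lower). All 10 genes passed that filter, with 416 to 18467 counts per gene and library. The median log2 fold change was -0.29 over the 10 genes and -0.0034 over the 9 without UBXN1, against 0.016 over all genes tested. Each of the 10 genes lies on a different chromosome.

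The study lists 3 hairpin sequences against human UBXN1, shown here because the knockdown rests on hairpins of this set, although the one in the sequenced cells is not named. They were located on GRCh38 with GENCODE v44, where UBXN1 (ENSG00000162191) occupies 62676498 to 62679117 on the minus strand of chromosome 11 and its canonical transcript has 9 exons, 1134 bases and a reading frame of 297 residues. Sequences are in the sense of the mRNA, and capitals mark the bases that pair with positions 2 to 8, the seed, of the antisense strand as designed.
shUBXN1-1: cccgatgtggacgAGCCTTTa
shUBXN1-2: aggagttagcagcCAGACAAa
shUBXN1-3: gcactgacatctcCTTCCTAa

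The shUBXN1-1 target lay in the coding part of exon 3 (62678559 to 62678579). The shUBXN1-2 target crossed a splice junction in the coding sequence, with 16 bases in exon 5 (62677927 to 62677942) and 5 bases in exon 6 (62677828 to 62677832). The shUBXN1-3 target lay in the 3′ UTR in exon 9 (62676522 to 62676542). They matched 15, 11 and 8 annotated UBXN1 transcripts, respectively, over all 21 bases, and no transcript of another annotated gene. In the transcripts of the other 9 genes, the longest uninterrupted match to a target was 7 to 10 bases. This length does not tell whether a match covered the seed, and an effect through the seed was not tested.

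The target of the knockdown was read first, in TPM, a unit that divides each count by gene length and sums to the same total in every library, so that genes can be compared. UBXN1 was at 106 and 118 TPM in the shCon libraries and at 28.2 and 28.8 TPM in the shUBXN1 libraries. The groups were far apart, and UBXN1 fell by 2.03 on the log2 scale (standard error 0.096, edgeR adjusted p = 9.983e-10), which left 24.5% of the control level. In bulk RNA, fewer cells with the transcript and less transcript per cell cannot be told apart. UBXN1 was the third most abundant of the 10 transcripts in both shCon libraries and the seventh in both shUBXN1 libraries. Only 1.10% of the genes tested had a lower log2 fold change.

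VCP encodes the ATPase itself and was the most abundant of the 10 transcripts in every library. Its level was 376 and 367 TPM in shCon and 250 and 263 TPM in shUBXN1. Both knockdown libraries were lower than both controls, and VCP fell by 0.59 on the log2 scale (standard error 0.083, edgeR adjusted p = 3.197e-05), a fold of 1.51. The gene lies on the minus strand of chromosome 9 from 35053928 to 35072668. The fall of VCP was called in all 15 alternative fits, between -0.68 and -0.51.

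**Figure D1:**
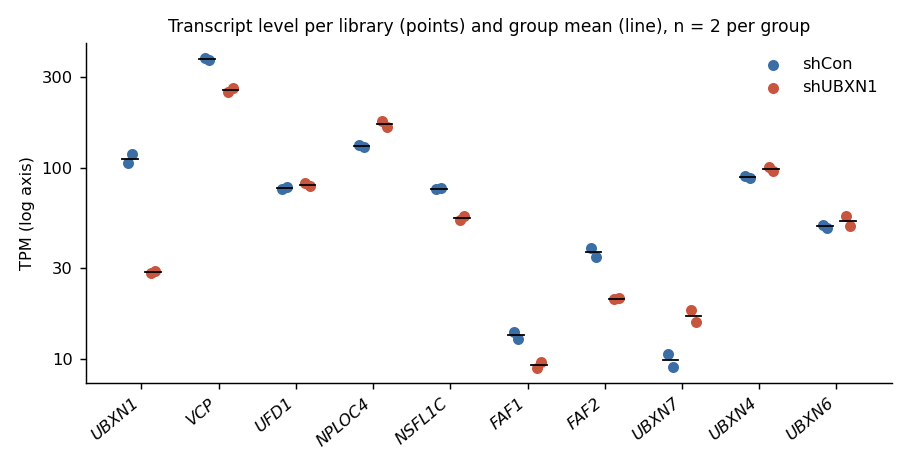
Transcript level in TPM on a log axis for each gene, with 1 point per library and a line at the mean of each group (n = 2). UBXN1, VCP, NSFL1C, FAF1 and FAF2 sit lower in shUBXN1 than in shCon, and NPLOC4 and UBXN7 sit higher.

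UFD1 and NPLOC4 encode the subunits of the heterodimer that recruits ubiquitinated substrates to VCP, for example proteins drawn from the endoplasmic reticulum. UFD1 was at 77.4 and 79.8 TPM in shCon and at 83.1 and 80.2 TPM in shUBXN1. In CPM, counts scaled by effective library size with no length correction, the UFD1 groups overlapped, and its log2 fold change was -0.0034 with a 95% interval of -0.16 to 0.16. NPLOC4 rose from 132 and 129 TPM to 175 and 163 TPM. Its groups did not overlap, and the log2 fold change was 0.32 (standard error 0.074, edgeR adjusted p = 0.002219). With each library's trend on GC content removed, the log2 fold change of NPLOC4 was 0.20 (edgeR adjusted p = 0.04455). The NPLOC4 call was lost when either shCon library was left out, at 0.30 without the first (edgeR adjusted p = 0.08646) and at 0.32 without the second (edgeR adjusted p = 0.07319). The ratio of NPLOC4 to UFD1 in TPM was 1.66 ± 0.0567 (SD, n = 2) in control cells and was 2.07 ± 0.0510 (SD, n = 2) after knockdown. The size of this ratio depends on the gene lengths used. With canonical transcript lengths, NPLOC4 was at 176 and 173 TPM in shCon and at 234 and 218 TPM in shUBXN1. UFD1 was then at 81.7 and 84.2 TPM in shCon and at 87.7 and 84.7 TPM in shUBXN1. With 2 libraries per group an exact two-sided permutation test of a ratio cannot go below p = 0.333, so ratios are given without a test.

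NSFL1C encodes p47, the cofactor of VCP in the reassembly of Golgi membranes, and like UBXN1 it has a UBA and a UBX domain. NSFL1C was at 77.3 and 78.8 TPM in shCon and at 53.6 and 55.8 TPM in shUBXN1. It fell by 0.57 on the log2 scale (standard error 0.079, edgeR adjusted p = 2.736e-05) with no overlap between groups. The ratio of VCP to NSFL1C was 4.87 and 4.65 in shCon and 4.66 and 4.71 in shUBXN1. The groups overlapped in this ratio of the ATPase to p47.

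FAF1, FAF2 and UBXN7 complete the set of UBA-UBX cofactors. FAF1, first described as a binding partner of the death receptor FAS, was at 13.9 and 12.8 TPM in shCon and at 9.03 and 9.62 TPM in shUBXN1. It fell by 0.57 on the log2 scale (standard error 0.091, edgeR adjusted p = 9.062e-05). FAF2, also called UBXD8, is anchored in the membrane of the endoplasmic reticulum and of lipid droplets and takes part in the degradation of proteins of the endoplasmic reticulum.
FAF2 was at 38.2 and 34.3 TPM in shCon and at 20.6 and 20.9 TPM in shUBXN1. After UBXN1 it showed the largest fall of the 10 genes, by 0.86 on the log2 scale (standard error 0.081, edgeR adjusted p = 5.988e-07) or a fold of 1.82. UBXN7 links VCP to cullin-RING ubiquitin ligases and was the least abundant of the 10 in the control cells, at 10.6 and 9.09 TPM. It moved in the opposite direction to the other UBA-UBX genes, to 18.1 and 15.7 TPM in shUBXN1. The log2 fold change of UBXN7 was 0.72 (standard error 0.082, edgeR adjusted p = 4.473e-06), with both knockdown libraries above both controls. Of the 5 UBA-UBX genes, 4 were called lower and 1 higher, with a median log2 fold change of -0.57, against 28.2% lower and 28.0% higher over all genes tested. This tally includes UBXN1, the target of the knockdown, without which 3 were lower and 1 higher.

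UBXN4 and UBXN6 have a UBX domain without a UBA domain. UBXN4, or erasin, is a protein of the endoplasmic reticulum membrane that promotes degradation of misfolded proteins, and UBXN6 works with VCP in endosomal sorting and in the clearance of damaged lysosomes. UBXN4 was at 90.6 and 88.3 TPM in shCon and at 101 and 96.1 TPM in shUBXN1, with a log2 fold change of 0.080 and a 95% interval of -0.073 to 0.23. UBXN6 was at 50.1 and 48.8 TPM in shCon and at 56.3 and 49.8 TPM in shUBXN1, with a log2 fold change of 0.040 and a 95% interval of -0.13 to 0.21. Neither passed the test, and both intervals include small changes in either direction.
Of the canonical UBXN6 transcript, 63.7% is G or C. After each library's trend on GC content was removed, its log2 fold change was -0.22 and was called (edgeR adjusted p = 0.02484). UBXN4 was called higher only when libraries were scaled to their total counts (log2 fold change 0.16, edgeR adjusted p = 0.02395).

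**Figure D2:**
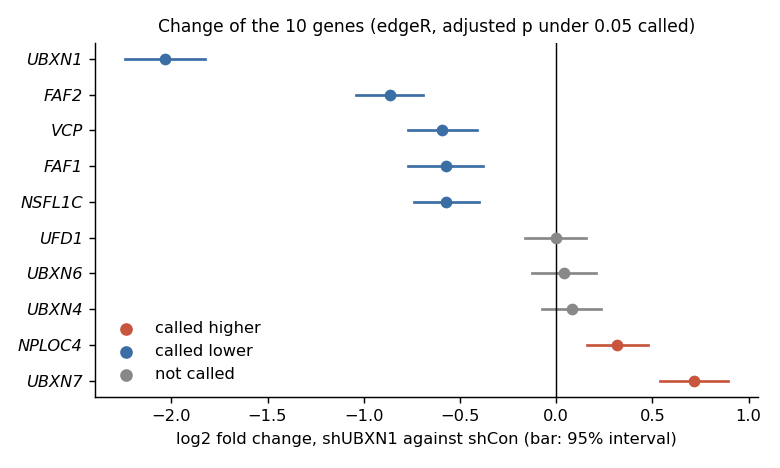
Log2 fold change of each gene in shUBXN1 against shCon on the x axis, with its 95% interval, coloured by call. UBXN1 stands at -2.03, FAF2, VCP, FAF1 and NSFL1C lie between -0.86 and -0.57, the intervals of UFD1, UBXN6 and UBXN4 include 0, and NPLOC4 and UBXN7 lie above 0.

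In CPM, 9 of the 10 genes had groups that did not overlap, all but UFD1, where 78.0% of all genes tested did not overlap. The study states thresholds of at least 2-fold with p under 0.05 and used limma. Applied here to the unadjusted p of the edgeR test, these thresholds called only UBXN1 of the 10 genes. They called 11.8% of all genes tested higher and 6.09% lower.

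The order of the transcript levels changed around VCP. In both shCon libraries VCP was followed by NPLOC4, UBXN1, UBXN4, UFD1, NSFL1C, UBXN6, FAF2, FAF1 and UBXN7. Of these neighbours, only UFD1 and NSFL1C overlapped in their TPM ranges over the 2 libraries. In both shUBXN1 libraries UBXN1, the target, stood at rank 7. UBXN4 and UFD1, next after UBXN1 in shCon, thus came next after VCP and NPLOC4. FAF1 came last in both, with UBXN7 just ahead of it, and UBXN6 and NSFL1C exchanged places between the libraries. Relative to VCP in the same library, NPLOC4 went from 35.0% and 35.3% to 70.2% and 62.2%. The fall of VCP (log2 fold change -0.59) by itself raises such percentages, and the log2 fold change of NPLOC4 was 0.32. UFD1 went from 20.6% and 21.8% to 33.3% and 30.5%, although its own level was not called changed. UBXN4 went from 24.1% in both shCon libraries to 40.4% and 36.6%, and UBXN6 from 13.3% in both to 22.5% and 19.0%. UBXN7 went from 2.81% and 2.48% to 7.23% and 5.97%. UBXN1 went the other way, from 28.1% and 32.3% of VCP to 11.3% and 11.0%, and so did FAF2, from 10.1% and 9.36% to 8.23% and 7.95%. FAF1 stayed between 3.48% and 3.70% of VCP in all 4 libraries, with overlapping groups.

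**Figure D3:**
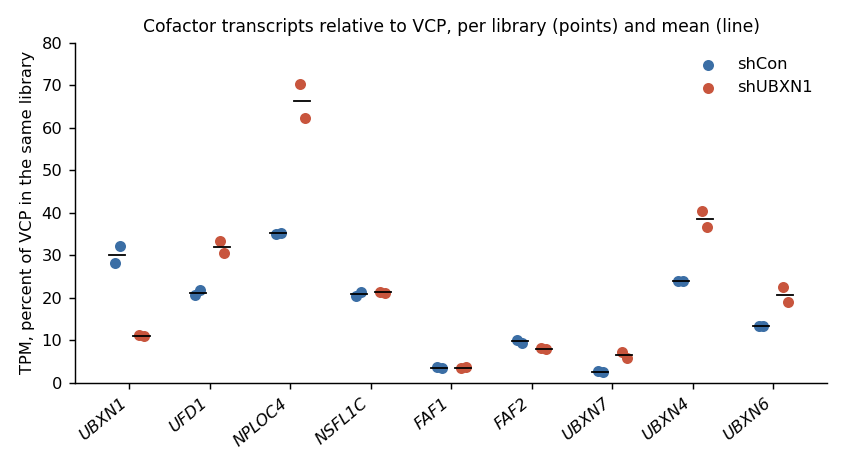
TPM of each cofactor as a percentage of the TPM of VCP in the same library, with 1 point per library and a line at the group mean. NPLOC4 rises from about 35.0% in shCon to 62.2% and 70.2% in shUBXN1, UBXN1 drops to 11.0% and 11.3%, and NSFL1C and FAF1 keep their place.

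UBXN1 made up a large part of the UBX protein transcripts in control cells. The summed level of the 13 UBX genes measured was 506 and 511 TPM in shCon and 416 and 397 TPM in shUBXN1. UBXN1 supplied 20.9% and 23.2% of it in shCon and 6.78% and 7.26% in shUBXN1. Without UBXN1, the other 12 genes summed to 400.0 and 393 TPM in shCon and to 388 and 368 TPM in shUBXN1. The remaining UBX transcripts were thus not higher in sum in the knockdown libraries.
Over the 5 UBA-UBX genes, UBXN1 included, the sum was 250 ± 5.36 TPM (SD, n = 2) in control cells and 130 ± 0.932 TPM (SD, n = 2) after knockdown. UBXN1, the target, went from a mean of 112 to 28.5 TPM, and its fall by itself raises the shares of the others. Within this sum NSFL1C became the largest part, at 41.4% and 42.7% in shUBXN1 against 31.5% and 31.1% in shCon, where UBXN1 had been the largest with 43.0% and 46.7%. The level of NSFL1C itself fell, from a mean of 78.0 to 54.7 TPM. UBXN7 rose as a part from 4.31% and 3.59% to 13.9% and 12.0%, and its own mean rose from 9.83 to 16.9 TPM.

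The rest of the VCP network was taken from 4 lists written by hand from general knowledge, which held 40 genes. Earlier results of these data were known when the lists were written. Of the 39 that could be tested, 9 were called higher and 10 lower, or 48.7% against the 56.2% of all genes, with a median log2 fold change of -0.0094. DERL3, which had at most 3 counts in any library, was not tested. Genes named below at a fold under 1.5 were chosen after their values were seen.

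Among the 6 other UBX genes 2 were called higher (UBXN2A and UBXN10), 2 lower (UBXN2B and UBXN8) and 2 were not called (UBXN11 and ASPSCR1). Over all genes tested, 28.0% were called higher and 28.2% lower. The calls of UBXN2B and UBXN8 were less stable, since 1 gene was called lower with DESeq2 and 0 with total count scaling or limma on TPM. UBXN10, a cofactor linked to cilia, had the largest log2 fold change, 2.30 (standard error 0.53, edgeR adjusted p = 0.002049), but rested on 5 and 7 counts in the control libraries and 33 and 25 in the knockdown libraries. UBXN2A had a log2 fold change of 0.51, whereas UBXN2B (p37), the closest relative of NSFL1C, and UBXN8 had -0.28 and -0.40.

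Of 22 tested genes for other cofactors and enzymes that act with VCP, 6 were called higher and 5 lower. The shares over all genes tested were 28.0% higher and 28.2% lower. The deubiquitinases of this list, YOD1, VCPIP1 and ATXN3, were all higher, a grouping made after their values were seen. YOD1, which trims ubiquitin chains from substrates before they pass through VCP, rose from 11.0 and 10.2 TPM to 34.1 and 33.4 TPM, a log2 fold change of 1.61 (standard error 0.078, edgeR adjusted p = 1.138e-09). VCPIP1, named after its binding to VCP, rose from 12.3 and 10.8 TPM to 22.9 and 21.6 TPM, with a log2 fold change of 0.89. ATXN3, the gene of Machado-Joseph disease, rose from 1.93 and 1.91 TPM to 4.19 and 3.65 TPM, with a log2 fold change of 0.97. Each of the 3 had both knockdown libraries above both controls, where 78.0% of all genes tested had groups that did not overlap, in either direction.
ANKRD13A, a ubiquitin-binding protein of endosomes, had a log2 fold change of 1.14, and SELENOS, which anchors VCP at the endoplasmic reticulum, and ANKZF1, which acts in ribosome quality control, had 0.35 each. Among the genes called lower, VCF1 (annotated as FAM104A), a VCP-binding protein, was 1.99-fold lower, and DERL2, a membrane protein of the degradation machinery of the endoplasmic reticulum, fell by 0.89 on the log2 scale. NGLY1, the cytosolic enzyme that removes N-linked sugars from exported proteins, fell by 0.64, the rhomboid protease RHBDD1 by 0.46, and ZFAND1, which recruits VCP to stress granules, by 0.45. The ubiquitin ligase SYVN1 and the membrane protein DERL1 did not pass the test, with log2 fold changes of 0.063 and -0.0094.

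Ubiquitin shuttle factors carry ubiquitinated proteins from VCP to the proteasome. Of 7 such genes 2 were called lower and none higher by edgeR, against 28.2% lower and 28.0% higher over all genes tested. A further 2 of the 7 had an unadjusted edgeR p under 0.05, UBQLN4 in the higher direction (log2 fold change 0.17) and DDI2 in the lower (-0.21). UBQLN1, one of those called lower, was at 142 and 140 TPM in shCon and at 88.0 and 92.0 TPM in shUBXN1. It fell by 0.70 on the log2 scale with no overlap between groups, whereas its paralogue UBQLN2 had a log2 fold change of -0.020 and overlapping groups. Of 4 related AAA ATPases, NVL, which acts in ribosome biogenesis, was called lower (-0.44), AFG2B higher (0.35), and NSF and AFG2A were not called. The call of AFG2B was lost with DESeq2, with the GC trend removed, and without either shCon library or shUBXN1 replicate 2, each of which left 0 of these genes called higher.

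**Figure D4:**
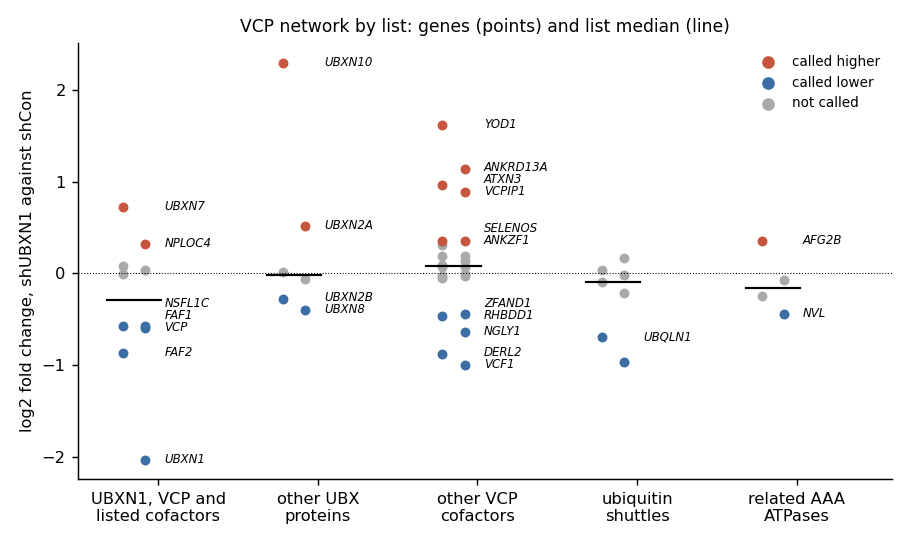
Log2 fold change in shUBXN1 against shCon for the genes of 5 lists, with a line at the median of each list and names beside the genes called, except 1 point among the shuttles. Points above and below 0 occur in every list, with YOD1 and UBXN10 farthest above and UBXN1 farthest below.

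Facts of the libraries bear on all of these values. The libraries held 23373700 to 27380508 counts, and 5.28% to 5.59% of counts in shCon and 7.43% to 8.27% in shUBXN1 were on mitochondrial genes. Of 10 hepatocyte markers, 7 exceeded 1 TPM in all 4 libraries. The 10 together summed to 4619 to 5433 TPM, mostly from the keratins KRT8 and KRT18. ALB was at only 16.0 and 14.8 TPM in shCon and 3.99 and 4.21 TPM in shUBXN1. AFP was at 4.13 to 6.26 TPM and APOA1 at 1.03 to 1.98 TPM. Of the 10, 6 were called lower in shUBXN1 (ALB, APOB, TTR, TF, FGB and KRT8, with log2 fold changes from -4.02 to -0.44), 2 higher (SERPINA1 at 0.40 and KRT18 at 0.31) and 2 were not called (AFP and APOA1). Calls in this and the other marker lists stand against 28.2% lower and 28.0% higher over all genes tested. Of 5 leukocyte markers only CD68 exceeded 1 TPM in all 4 libraries, CD14 was at 0.806 to 1.29 TPM, and CD3E and MS4A1 had no counts. The 4 endothelial markers summed to 15.2 TPM in both shCon libraries and to 31.9 and 32.1 TPM in shUBXN1. PECAM1 and KDR exceeded 1 TPM in all 4 libraries, and both were called higher. KDR went from 5.09 and 5.35 to 17.9 and 19.5 TPM, and PECAM1 from 9.97 and 9.61 to 13.7 and 12.4 TPM. VWF was not called and CDH5, at 0.124 TPM at most, was not tested. The 5 fibroblast markers summed to 0.347 to 1.42 TPM, and 0 exceeded 1 TPM in all 4 libraries. COL1A1, the only one tested, was called higher. The part of these differences in the results was not tested.

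Annotated exons of other genes overlapped those of some of the 10 genes, where reads could be shared. Reads shared with paralogues were not tested. An unnamed annotated gene overlapped 15.2% of the exon bases of UBXN6 on the opposite strand, at 12.5 to 45.8 counts per library, and SIRPB2 overlapped 8.55% of NSFL1C on the same strand, at 0 to 2 counts. Another unnamed gene overlapped 10.3% of UBXN6 on the opposite strand, at 0 to 4.38 counts. CHAF1A, with 973 to 2133 counts, shares 20 bases with UBXN6, and TSPAN10, with 67 to 144 counts, shares 36 bases with NPLOC4. Whether strand was used in counting is not given in the sources used here.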

How the data were processed

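RNA of MHCC97H cells was sequenced in 4 libraries, 2 shCon and 2 shUBXN1, grouped by the titles in the labels. Per the methods of the study, the authors sequenced paired ends, aligned them with Hisat2 to GRCh38, calculated TPM and tested with limma. The submitters' processing notes instead name GRCh37 with HISAT2 2.0.4 and StringTie 1.3.0, and the labels name another library kit than the methods. Of the gene IDs, 99.7% are in GENCODE v44 on GRCh38, whose symbols and coordinates were used. The authors deposited, for each gene, expected counts without normalization, some of them not whole, and a gene length. The counting tool, the annotation release and the use of strand are not given in the sources used here.

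Expected counts were rounded, filtered with filterByExpr, normalized with TMM (factors 0.967 to 1.06) and tested with edgeR 4.0.16 (glmQLFit, glmQLFTest) in R 4.3.3, without a block, with Benjamini-Hochberg adjustment over 16863 genes. Standard errors were derived from the fold change and its F statistic. The test was also run on simulated counts as a check of the code. Far fewer genes were changed in them than were called here, so the check does not cover that setting. CPM were scaled by TMM, and TPM were computed from the deposited lengths without TMM scaling. Residual degrees of freedom were 2 per gene. The fit shares information on variance across genes, so its p-values and 95% intervals rest on more degrees of freedom than these. Precision is limited by 2 libraries per group. The libraries of a group were not copies of one file, since their counts differed by more than sampling noise (chi-square over genes 3.79 and 8.37 times its degrees of freedom), which does not show separate cultures.

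The members and lists were chosen with earlier results of these data known. The genes named are the 10 members, called genes of the other lists at a fold of at least 1.5 (others as stated), markers of cell types (ALB, AFP, APOA1 and KRT18 by rule, others after their values were seen), and the 5 genes nearest to UBXN1 over the 4 libraries. Alternatives were DESeq2 1.42.0, total count scaling, limma 3.58.1 (voom, log2(CPM + 1), log2(TPM + 1) and log2(TPM + 0.1)), no filter, at least 10 counts in every library, unrounded counts, a replicate block, removal of the GC trend, the thresholds of the study and leaving out each library. TPM from canonical transcript lengths were added after the data were seen. Some genes of the other lists are counted but not reported here by name.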

Additional observations from a re-analysis of the deposited data

How the results depend on the processing

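The calls and directions of UBXN1, VCP, NSFL1C, FAF1, FAF2 and UBXN7 held in all 15 alternative fits, and UFD1 was called in none. NPLOC4 ran from 0.20 to 0.40 and was called in 13 of 15, the 2 losses being without either shCon library, at 0.30 to 0.32 with a library left out. UBXN4 was called with total count scaling (0.16), under which the median of all genes was 0.10,, and UBXN6 turned to -0.22 and was called after removal of the GC trend. The cause was not tested. Members called higher were 1 without either shCon library, 1 to 2 over all libraries left out and 0 at the thresholds of the study, where 1 was called lower. Other UBX genes called higher were 1 with at least 10 counts in every library, and those called lower were 1 with DESeq2, 0 with total count scaling or either limma fit on TPM, and 1 to 2 with a library left out (1 without either shCon library or shUBXN1 replicate 1). Of the related ATPases, 0 were called higher with DESeq2 or the GC trend removed and 0 to 1 with a library left out (0 without either shCon library or shUBXN1 replicate 2), and 1 to 2 were called lower (2 without either shUBXN1 library). Of the shuttles, 1 was called higher with at least 10 counts in every library, total count scaling, either limma fit on TPM or the replicate block, and 0 to 1 with a library left out (1 without shUBXN1 replicate 1). The replicate block changed no call of the 10 members, and took other cofactors called higher from 6 to 7 and shuttles called lower from 2 to 3. Deviations of same-numbered libraries correlated at 0.039, so the numbers were not taken as pairs. With canonical transcript lengths, shCon means were 135 TPM for UBXN1, 392 for VCP and 174 for NPLOC4, and NSFL1C and UFD1 exchanged places in shCon.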

Other observations

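The genes nearest to UBXN1 on chromosome 11 gave a view of the locus that does not depend on function. Of the 10 nearest protein-coding genes tested, all within 33.5 kb, 1 was called higher, 3 lower and 6 not called, against 28.0% higher and 28.2% lower over all genes tested, with a median log2 fold change of 0.077. UQCC3, an assembly factor of respiratory complex III that lies 2812 bases away, was at 21.4 and 26.1 CPM in shCon and at 14.7 and 15.7 CPM in shUBXN1, a log2 fold change of -0.64 (edgeR adjusted p = 0.0003631). LBHD1, at 4231 bases, moved the other way, with a log2 fold change of 0.71 (edgeR adjusted p = 0.0006014). HNRNPUL2, the farthest of the 10, had -0.65, while BSCL2 and GANAB did not pass the test at 0.10 and -0.15. None of the 10 was as low as UBXN1. Several of these genes overlap one another in the annotation, so their counts could be split between them. LBHD1 overlaps UQCC3, CSKMT and C11orf98. The readthrough gene HNRNPUL2-BSCL2 overlaps HNRNPUL2, BSCL2 and GNG3, so the 10 are not independent readings of the locus.

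The 5 genes whose pattern over the 4 libraries was nearest to that of UBXN1 were FSTL4, SRPX2, AP1M2, KLF2 and SLC51B, at Euclidean distances of 0.077 to 0.14 in centred log2 CPM. Their log2 fold changes ran from -2.11 to -1.95; 4 libraries in 2 groups leave little beyond the size of the fall to compare.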
